A study of Saccharomyces cerevisiae with 12 samples.

Results

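YSF3 encodes the smallest subunit of SF3b, the part of the U2 small nuclear ribonucleoprotein that holds the branch point of an intron during spliceosome assembly, and its own transcript is interrupted by a single intron. The 4 libraries described here came from budding yeast that lack this intron. They are 4 of the 12 libraries of the series, and were chosen by their labels alone, as the count columns of ysf3 deletion strains 1 and 2 after 48 h of culture against those of the same strains in log phase. The question was how starvation after growth changed the RNA of these cells, gene by gene, and whether that change differed from the change in cells with the intron.

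All strains were of the BY background and grew in synthetic minimal medium with 2% glucose and added lysine, uracil, leucine and histidine. The groups used are the ysf3 intron deletion at 48 h and in log phase, and, for comparison, the mms2 intron deletion at 48 h and in log phase and the wild type at 48 h and in log phase, with 2 strains in each genotype and 1 library per strain and phase. MMS2 encodes a ubiquitin-conjugating enzyme variant that acts in DNA damage tolerance. Total RNA was depleted of ribosomal RNA, cut to about 200 bases and sequenced, so that RNAs without a poly(A) tail were counted too. The labels do not say whether the strains of a genotype are separate clones of 1 transformation, so the p-values measure the spread between these strains and no wider spread.

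When yeast exhausts glucose it first respires the ethanol it has made, at the diauxic shift, and then stops dividing. The protein kinase A and TOR pathways, which drive ribosome synthesis while sugar lasts, lose activity, the Snf1 kinase frees genes for other carbon sources from glucose repression, and the activators Msn2 and Msn4 turn on stress genes through the stress response element. Cells in this state store trehalose and glycogen, build mitochondria and peroxisomes and recycle cytoplasm by autophagy. In this species few genes have introns, but these include most genes of ribosomal proteins.

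The deleted intron lies at chr14:366036-366157 on the plus strand of the R64 assembly (sacCer3), directly after the start codon, with 3 coding bases before it and 255 after it. It is 122 bases long and is printed because its removal defines these strains. Capitals mark the 5′ splice site (GTATGT), the branch point sequence (TACTAAC) and the 3′ splice site (CAG), read from RefSeq, and 62 bases separate the branch point sequence from the end of the intron.
YSF3 intron: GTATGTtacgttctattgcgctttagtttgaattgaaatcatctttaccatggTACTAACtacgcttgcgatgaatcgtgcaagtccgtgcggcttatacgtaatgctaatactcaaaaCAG

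The 4 libraries held 9075505 and 16581925 counts at 48 h and 13723072 and 14956893 in log phase, within the range of 4871513 to 16581925 over the series. Replicate libraries correlated across genes with Pearson's r of 0.993 at 48 h and 0.982 in log phase on the log2 scale. The log-phase libraries differed by more than 2-fold in 236 of the 6068 genes tested (with 0.5 added to each level), against 34 genes at 48 h. The log-phase library of strain 2 stood apart from the other log-phase libraries in ribosomal RNA. Mitochondrial 15S rRNA was at 1637 CPM there (the count relative to the scaled library size), against 8.20 CPM in the log-phase library of strain 1 and 8.20 to 38.8 CPM in the other 5 log-phase libraries of the series. RDN37-2, an annotated copy of the nuclear ribosomal RNA precursor, had 743 counts in that library and 0 in the log-phase library of strain 1. At 48 h it had 209 and 49 counts in the ysf3 strains. Over the 6 libraries of the series at 48 h, 15S rRNA was at 46.2 to 4980 CPM and RDN37-2 at 0.071 to 113.5 CPM. In the other 5 log-phase libraries RDN37-2 was at 0 to 0.13 CPM. The part of this ribosomal RNA in the results below was not tested. Values without the log-phase library of strain 2 are given beside the results that this library moved most.

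The marker genes put both ysf3 strains in mating type a. STE2, the receptor for alpha factor, had 52.0 and 59.6 CPM at 48 h and 999.8 and 682.2 CPM in log phase, whereas STE3, the receptor of alpha cells, stayed between 1.91 and 5.75 CPM in the 4 libraries. Summed over the 7 markers of a cells, and relative to unscaled library totals, the level was 244 and 270 CPM at 48 h and 1867 and 1465 CPM in log phase, and over the 5 markers of alpha cells it was 34.6 and 38.9 CPM at 48 h and 22.4 and 40.5 CPM in log phase. MFA1 and MFA2, which encode the a-factor precursors, had 0 counts in all 4 libraries, so the sum for a cells rests on the other markers. For counting error alone, 0 counts allow up to 0.331 and 0.181 CPM of the unscaled totals at 48 h and 0.219 and 0.201 CPM in log phase. Whether reads of MFA1 and MFA2 could be counted in these libraries was not tested, so their absence is not shown. Wild-type strain 1 had the opposite pattern in log phase, with 577.9 CPM of STE3 and 9.59 CPM of STE2. Wild-type strain 2 had 4.31 CPM of STE3 and 786.3 CPM of STE2, so the wild-type group mixed both patterns. In the test over all 12 libraries STE2 fell by 3.91 ± 1.36 with an adjusted p of 0.0254, which was 0.0593 without the log-phase library of strain 1 and 0.117 and 0.109 without the library of strain 1 or strain 2 at 48 h, and BAR1, STE6 and AGA2 were not called. With only the 4 ysf3 libraries in the edgeR fit the adjusted p-values were 4.35e-05 for STE2, 0.00127 for BAR1, 7.51e-05 for STE6 and 0.00664 for AGA2, and these genes were lower at 48 h. ASG7, also a marker of a cells, was called in neither fit and did not fall. It had 6.635 and 8.031 CPM at 48 h and 7.878 and 4.467 CPM in log phase.

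At 48 h the RNA of the ysf3 deletion differed from log phase in 4056 of 6068 genes tested, which is 66.8%, by edgeR's quasi-likelihood test at an adjusted p under 0.05. Of these, 2057 were higher at 48 h (33.9% of genes tested) and 1999 were lower (32.9%), and the median log2 fold change over all genes was 0.03. The largest changes were upward: 627 of the called genes were more than 4-fold higher and 180 were past 4 on the log2 scale, whereas 435 were more than 4-fold lower and 12 were past 4 on that scale. Levels at 48 h and in log phase did not overlap between libraries in 2056 of the 2057 genes higher and in all 1999 genes lower. Over all genes tested this held in 5062 of 6068. A gene that passes the test would be likely to show no overlap, so this adds little to the calls. Without the log-phase library of strain 2, the counts were 1900 higher and 2034 lower, and 3668 of the 4056 calls were kept. The authors' deposited table for the same comparison lists 2629 genes past an adjusted p of 0.001, and all of them had the same sign here. That table came from the same libraries, so the match in sign is not independent evidence. Levels are relative to all RNA counted in a library, so a lower level of a transcript in some cells and fewer such cells cannot be told apart, and RNA per cell was not measured.

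**Figure D1:**
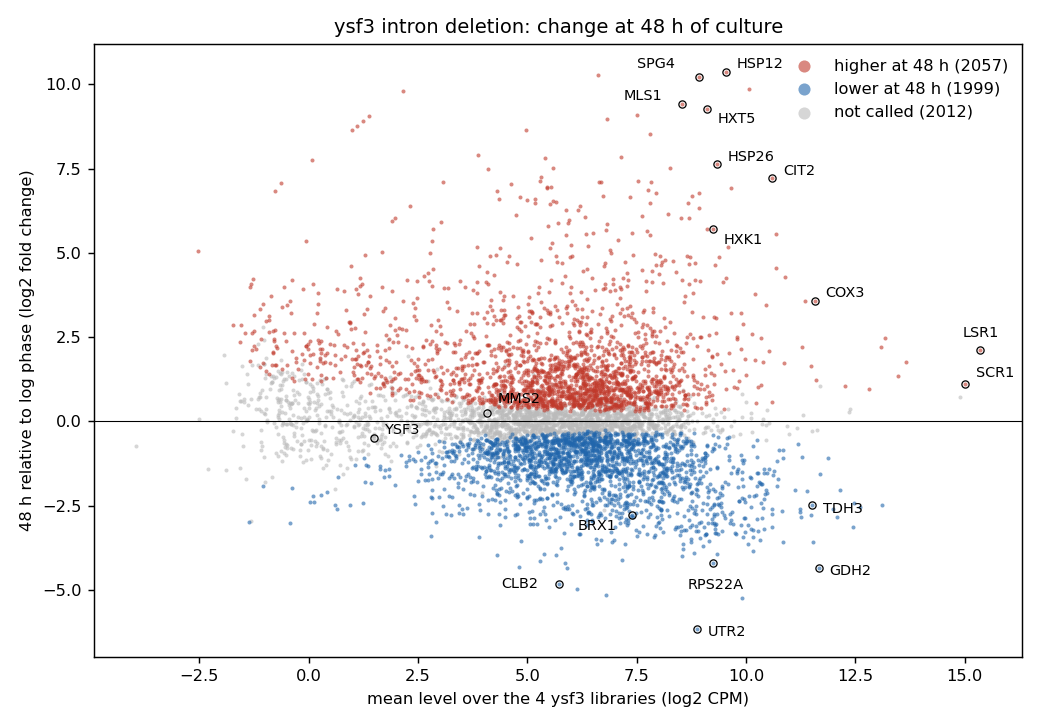
Each point is 1 of the 6068 genes tested, with its mean level over the 4 ysf3 libraries (log2 CPM) on the horizontal axis and its log2 fold change at 48 h relative to log phase on the vertical axis. Red points were called higher (2057), blue points lower (1999) and grey points not called (2012), and the points reach 10.37 above the line of no change but only 6.16 below it.

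A value after ± is an approximate error of a log2 fold change, obtained from its size and its F statistic as size over root F; the fit itself gives no such error, and few counts can make it too small. Values for single libraries are in CPM, with strain 1 before strain 2.

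HSP12, which encodes a small membrane-associated stress protein, had 1244 and 1732 CPM at 48 h, against 1.91 and 0.41 CPM in log phase. This was the highest fold change of any gene tested with all libraries, 10.37 ± 0.55 on the log2 scale (adjusted p = 8.38e-08), but without the log-phase library of strain 2 it was 9.52, below SPG4 (10.46), PHM7 (10.24) and DPA10 (10.09). It rested on 30 counts in log phase and 39958 at 48 h. The stationary-phase gene SPG4 had 922.4 and 1009 CPM at 48 h and 0.64 and 0.95 CPM in log phase, a change of 10.22 ± 0.32. PHM7, a predicted membrane protein, had 1942 and 2355 CPM at 48 h and 1.67 and 2.84 CPM in log phase, a change of 9.87 ± 0.33. In each of these genes both libraries at 48 h lay far above both log-phase libraries. DPA10 was counted 4 times in log phase and 4752 times at 48 h, and the ratio of levels was 1270 with an exact 95% interval of 496 to 4660, which covers counting error only.

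Other genes among the 20 highest included enzymes, carriers and stress proteins. MLS1, the malate synthase of the glyoxylate cycle, had 691.9 and 778.2 CPM at 48 h and 1.03 and 1.08 CPM in log phase (9.42 ± 0.24, adjusted p = 1.59e-09). The hydrophilin SIP18 changed by 9.08, the carnitine carrier of mitochondria CRC1 by 8.64, the acetate permease ADY2 by 8.52 and the glycerol symporter STL1 by 7.84. The heat shock protein HSP26 changed by 7.63, the peroxisomal thiolase POT1 by 7.52, the peroxisomal citrate synthase CIT2 by 7.20, the succinate and fumarate carrier SFC1 by 7.13 and the cell wall protein PIR3 by 7.12. CRC1 and RGI2 rested on 4 and 5 counts in log phase. HXT6 had 3 counts in log phase and 736 at 48 h, 262 times in level (exact 95% interval 89.4 to 1270), but its sequence is nearly identical to HXT7, so reads could have been split between them.

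The 20 lowest genes included genes of the cell wall, mitosis, lipids and purines. UTR2, which crosslinks chitin to glucan in the cell wall, had 12.4 and 13.5 CPM at 48 h, against 973.1 and 890.5 CPM in log phase, and fell by 6.16 ± 0.20 (adjusted p = 8.37e-09). CLB2 and CLB1, the main mitotic cyclins, fell by 4.83 and 4.35. SFG1, a regulator of the separation of daughter cells, fell by 4.98, and the oligopeptide transporter gene OPT2 fell by 5.24. GDH2, the glutamate dehydrogenase that releases ammonium, had 319.8 and 284.6 CPM at 48 h and 5902 and 6449 CPM in log phase. ELO2 and ELO3, the elongases of very long fatty acids, fell by 3.93 and 4.11, and ADE1 and ADE17 of purine synthesis by 3.79 and 3.85. INA1 and HO were also among these genes, with a wider gap between strains in log phase: INA1 had 6.41 and 5.69 CPM at 48 h against 118.5 and 313.3 CPM in log phase, and HO, the endonuclease of mating-type switching, had 6.18 and 5.81 CPM against 126.2 and 63.3 CPM.

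Genes of the cytosolic ribosome moved as a block. All 57 genes of the small subunit tested were called lower, as were 79 of the 80 of the large subunit, with median log2 fold changes of -2.80 and -2.81 against 0.03 over all genes. Together these genes took 1.87% and 1.77% of all counts at 48 h and 12.1% and 9.40% in log phase. RPS22A had 63.3 and 59.9 CPM at 48 h and 1365 and 931.3 CPM in log phase, and fell by 4.22 ± 0.22, the most of any ribosomal protein gene tested. RPL9A changed by -3.99 ± 0.28, RPS9B by -3.52 ± 0.28, RPL14A by -3.57 ± 0.32 and RPL20A by -3.56 ± 0.21. RPL1A, RPS8B and RPS11A changed by -3.59, -3.52 and -3.46, but each has a near-identical copy elsewhere in the genome. Many ribosomal protein genes are such pairs, so the values of such copies are uncertain.

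Factors that assemble ribosomes and do not stay in them were lower as well, by a smaller amount. Of the genes for the large subunit pathway 58 of 61 were called lower and none higher, with a median of -1.54. For the small subunit pathway the counts were 61 of 70 lower and none higher, with a median of -1.24. NIP7, needed for 60S assembly, had 11.5 and 14.9 CPM at 48 h and 142.8 and 126.0 CPM in log phase, and fell by 3.34 ± 0.20. BRX1 fell by 2.79 ± 0.12, ALB1 by 2.78 and IPI3 by 2.55, and in the small subunit pathway SNU13 fell by 2.99, NOP56 by 2.70, NHP2 by 2.68 and the nucleolin homologue NSR1 by 2.64 ± 0.22. RNA polymerases I and III, which make ribosomal and transfer RNA, had 18 of 35 genes lower and 6 higher. RPA49 of polymerase I had 36.1 and 33.4 CPM at 48 h and 371.5 and 308.6 CPM in log phase (-3.29 ± 0.18), while BDP1, a subunit of the polymerase III initiation factor, rose by 1.38 ± 0.33.

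Of the translation factors 38 of 41 were called lower and 1 higher (median -1.43), and of the cytosolic tRNA synthetases 17 of 18 were lower and none higher (median -1.92). TEF4, a subunit of elongation factor 1B, had 163.4 and 165.7 CPM at 48 h and 1907 and 1656 CPM in log phase. The elongation factor gene YEF3 fell by 2.49 ± 0.24, to 2912 and 2387 CPM at 48 h against 17003 and 12739 CPM in log phase. Its paralog HEF3 was the exception: it had 309.2 and 355.8 CPM at 48 h and 8.91 and 12.7 CPM in log phase, and rose by 4.94 ± 0.19 (adjusted p = 1.3e-08). Among the synthetases, WRS1 for tryptophan fell by 2.72, TYS1 for tyrosine by 2.64 and THS1 for threonine by 2.42.

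The promoters of these genes are known to share short motifs, and the data allow a count of them beside the changes. Windows of 250 bases before to 50 bases after the gene start were searched on both strands in 5631 protein genes tested. The PAC element (GATGAG) was in 91.8% of the windows of large subunit assembly genes and in 90.0% of those of small subunit assembly genes, against 20.1% of all windows. The RRPE core (AAATTTT) was in 98.4% and 92.9% of them, against 1351 of the 5631 windows in all. Among genes called lower the shares were 25.1% for PAC and 32.8% for RRPE, and among genes called higher they were 15.7% and 17.4%. Outside the assembly lists, 341 genes held both motifs, and of these 176 were called lower and 62 higher, with a median of -0.54. Ribosomal protein genes are known to be driven by other factors, and PAC was in 7 of 57 windows for the small and 8 of 80 for the large subunit.

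The 3 stretches from assembly genes are shown with these motifs in capitals, on either strand and overlapping in places, each from 250 to 101 bases before the gene start and read along the gene's strand from the R64 assembly in RefSeq. They lie at chr16:153245-153394 (plus strand) for NIP7, chr15:186824-186973 (minus strand) for BRX1 and chr7:807757-807906 (minus strand) for NSR1.
NIP7: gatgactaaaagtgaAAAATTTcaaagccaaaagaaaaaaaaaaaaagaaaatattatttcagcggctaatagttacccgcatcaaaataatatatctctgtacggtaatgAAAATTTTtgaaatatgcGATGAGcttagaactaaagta
BRX1: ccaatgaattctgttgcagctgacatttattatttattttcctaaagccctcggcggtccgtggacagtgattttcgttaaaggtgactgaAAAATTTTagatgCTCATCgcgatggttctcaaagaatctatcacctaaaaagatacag
NSR1: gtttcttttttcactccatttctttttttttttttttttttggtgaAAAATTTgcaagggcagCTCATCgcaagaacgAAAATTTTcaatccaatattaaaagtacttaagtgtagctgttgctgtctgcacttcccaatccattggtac

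Other pathways that supply a growing cell were lower in most of their members. In purine synthesis 19 of 22 genes were called lower and none higher (median -2.09): both ADE13 and IMD2, an IMP dehydrogenase, changed by -3.63. In pyrimidine and deoxynucleotide synthesis 12 of 15 were lower and 3 were higher. RNR1, the large subunit of ribonucleotide reductase, had 24.2 and 28.2 CPM at 48 h and 181.0 and 279.3 CPM in log phase, while its paralog RNR3, known for its induction by DNA damage, rose by 2.04 ± 0.30. Ergosterol synthesis had 23 of 24 genes lower and none higher (median -1.60), led by ERG2 at -2.78. Fatty acid synthesis had 11 of 14 lower and 1 higher, FAA1, an acyl-CoA synthetase that imports fatty acids, which rose by 2.10 ± 0.19. The fatty acid synthase gene FAS1 fell by 2.03 ± 0.23, to 1976 and 1567 CPM at 48 h against 6978 and 7496 CPM in log phase. The vacuolar ATPase had 15 of 17 genes lower, and glycosylation and chaperones of the endoplasmic reticulum 22 of 32 lower and 2 higher.

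More genes of the division cycle were lower than higher. Of 32 cyclins and regulators of the cycle 17 were called lower and 5 higher, of 34 replication genes 22 were lower and 2 higher, and of 30 genes for budding and cytokinesis 22 were lower and 2 higher. Of the 11 histone genes 10 were lower, led by HTA2 with 11.8 and 14.4 CPM at 48 h and 87.1 and 102.5 CPM in log phase (-2.85 ± 0.34). POL30, the sliding clamp, fell by 2.35, SWI5, a factor of the end of mitosis, by 2.94 and the G1 cyclin CLN1 by 2.88. WHI5, the repressor that holds cells in G1, went the other way, with 25.5 and 23.8 CPM at 48 h and 6.68 and 11.4 CPM in log phase (1.44 ± 0.32, adjusted p = 0.00225). CHS1, the chitin synthase that repairs the wall after division, rose by 2.58 ± 0.23. The cell wall list was split, with 11 of 29 genes higher and 11 lower, against 33.9% and 32.9% of all genes. PIR3, GSC2, SED1 and SPI1 rose by 4.18 to 7.12, and TIP1 and GAS1 fell by 3.55 and 3.32.

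In carbon metabolism and in some other families, members often moved in opposite directions. Over all genes tested 33.9% were called higher and 32.9% lower. Among 22 families of isozymes or paralogous proteins examined, 14 had at least 1 member called higher and another called lower. In 12 the member with the highest level per length was not the same at 48 h and in log phase. The families were chosen with earlier results of these data known, and shares per gene are no background for such splits. PDC1 and BAT1, on which 2 splits rest, were not called at an adjusted p under 0.01. The Hsp70 split rests on SSA2, which has a near-identical copy, SSA1. Levels in this paragraph and the next are in CPM per kb of exon, which allows genes to be compared. For the first step of glycolysis, HXK1 had 827.6 and 798.6 at 48 h and 16.65 and 14.58 in log phase, and the glucokinase gene GLK1 had 889 and 1037 at 48 h and 116 and 92.1 in log phase. HXK2, the hexokinase used in rapid growth on glucose, had 181 and 144 at 48 h and 1355 and 1029 in log phase. HXK2 was the highest of the 3 genes in log phase and the lowest at 48 h, and no gene overlapped between phases. Of the pyruvate kinases CDC19 fell by 2.08 and PYK2 rose by 2.00, but CDC19 stayed higher at 48 h, at 691 and 676 against 76.2 and 81.8 for PYK2.

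Of the acetyl-CoA synthetases, ACS2 fell by 0.65 to 150 and 147 CPM per kb at 48 h, and ACS1 rose by 6.14 ± 0.23 to 231 and 318 CPM per kb at 48 h, against 4.09 and 3.70 in log phase. In the oxidative branch of the pentose phosphate pathway GND1 had 89.9 and 89.4 at 48 h and 967.6 and 555.6 in log phase, and GND2 had 91.7 and 122 at 48 h and 2.58 and 2.01 in log phase. In the transaldolase pair NQM1 had 408 and 569 CPM per kb at 48 h and 3.57 and 5.20 in log phase, above TAL1 at 48 h only. For phosphoglucomutase PGM2 rose by 4.80 and PGM1 fell by 2.94. In the glutamate dehydrogenases GDH3 had 608 and 782 CPM per kb at 48 h and 5.73 and 6.95 in log phase, while GDH1 was not called (-0.26 ± 0.15, adjusted p = 0.155). ADH1, which makes ethanol, remained above ADH2, which uses it, although ADH1 fell by 2.84 and ADH2 rose by 4.73. The plasma membrane proton pump PMA1 fell by 2.55 and its paralog PMA2 rose by 2.69.

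**Figure D2:**
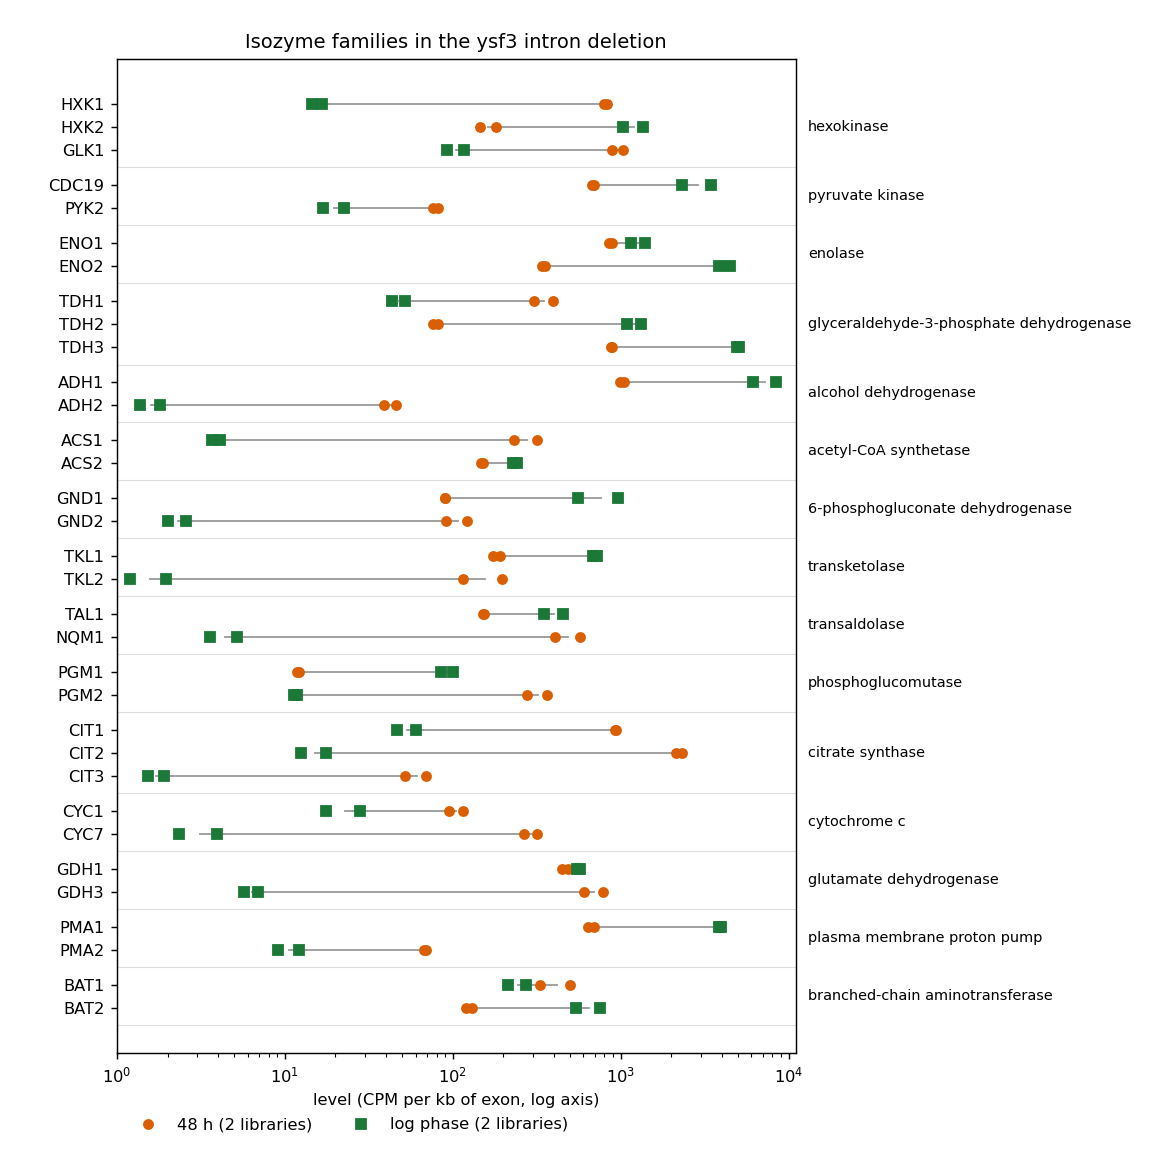
Level of each member of 15 isozyme families in the ysf3 deletion, in CPM per kb of exon on a log axis, with 1 orange circle per library at 48 h and 1 green square per library in log phase, joined by a line between the means. In families such as hexokinase, transaldolase and phosphoglucomutase the lines of the members run in opposite directions, with HXK1 between 798.6 and 827.6 at 48 h and between 14.58 and 16.65 in log phase.

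The enzymes of lower glycolysis that dominate in log phase were lower, 7 of 11 genes, and 3 were higher. ENO2 fell by 3.58 ± 0.30, PGK1 by 2.61 and GPM1 by 2.67, whereas ENO1 did not pass the test (-0.55 ± 0.26, adjusted p = 0.0884). TDH2 fell by 3.94 and TDH3 by 2.49, but these are near-identical, and TDH1 rose by 2.88. In upper glycolysis FBA1, the aldolase, had 1144 and 1106 CPM at 48 h and 11659 and 8263 CPM in log phase. PDC1, the main pyruvate decarboxylase, fell by 1.09 with an adjusted p of 0.0158, but its adjusted p was 0.0713 (change -0.84) without the log-phase library of strain 2 and 0.126 without the library of strain 2 at 48 h. PDC5 rose by 4.96 ± 0.45 with a wide spread at 48 h, 674.5 and 267.9 CPM, against 11.5 and 18.6 CPM in log phase.

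Most sugar transporters were higher at 48 h. Of 19 hexose transporters and sensors tested 14 were higher and 2 were lower, with a median of 2.45. The 2 lower were HXT1 and HXT3, the low-affinity transporters of high glucose, which changed by -3.52 and -1.84. HXT5, a transporter made in slow growth, had 1027 and 1174 CPM at 48 h and 2.15 and 1.42 CPM in log phase (9.27 ± 0.28, adjusted p = 5.55e-09). HXT6 and HXT7, the high-affinity pair, both rose but share their sequence. Of 18 genes for import of other carbon sources 13 were higher and 3 lower: JEN1, the lactate and pyruvate permease, had 384.1 and 472.4 CPM at 48 h and 3.58 and 3.72 CPM in log phase, and ATO2 rose by 6.54.

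In the electron transport list 30 of 30 nuclear genes were called higher, with a median of 2.07, and so were the 8 proteins of the mitochondrial genome, with a median of 2.26. Without the log-phase library of strain 2 these counts were 28 and 7. CYC7, the cytochrome c isoform of low oxygen and stress, had 91.0 and 107.9 CPM at 48 h and 0.80 and 1.35 CPM in log phase, and passed CYC1 in level per length at 48 h. SDH1, the flavoprotein of succinate dehydrogenase, had 799.5 and 781.6 CPM at 48 h and 29.0 and 33.4 CPM in log phase. Among mitochondrial genes COX3 had 5176 and 6018 CPM at 48 h and 522.6 and 412.3 CPM in log phase (3.58 ± 0.38), and COX1 and COX2 rose by 2.51 and 2.43. Proteins of the mitochondrial genome together took 1.48% and 1.67% of counts at 48 h and 0.263% and 0.237% in log phase. The list of ATP synthase and nucleotide carriers had 18 of 21 genes higher and 1 lower, the carrier gene AAC3, known from anaerobic cells; without the log-phase library of strain 2, or without the library of strain 1 at 48 h, 11 were higher. STF1 and INH1, which inhibit the ATPase when the membrane loses its potential, were at the top with 3.54 and 3.40.

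Mitochondrial ribosomal protein genes did not follow the respiratory chain. Of 69 tested 10 were higher and 14 lower, below the share over all genes in both directions, and their median was -0.09. Without the log-phase library of strain 2 there were 8 higher and 22 lower, without that of strain 1 there were 11 and 8, and without the library of strain 2 at 48 h there were 8 and 7. RSM10 rose by 2.04 ± 0.14 and MRPL20 fell by 1.68 ± 0.24.

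The tricarboxylic acid cycle had 15 of 22 genes higher and 5 lower (median 1.43; 3 lower without the library of strain 2 at 48 h), the glyoxylate cycle and gluconeogenesis 14 of 19 higher and 2 lower (median 3.84), and carnitine shuttling and methylcitrate 9 of 10 higher and 1 lower (median 5.11). CIT1, the mitochondrial citrate synthase, had 1338 and 1351 CPM at 48 h and 86.8 and 67.1 CPM in log phase. PDB1, a subunit of pyruvate dehydrogenase, was among the lower members of the cycle list (-1.35). In gluconeogenesis MDH2, the cytosolic malate dehydrogenase, fell by 0.64 ± 0.21 with an adjusted p of 0.0181, which was 0.0604 without the log-phase library of strain 1 and 0.0921 and 0.0572 without the library of strain 1 or strain 2 at 48 h. YAT1, a carnitine acetyltransferase, rose by 7.10 and PDH1 of propionate degradation by 6.09. All 9 genes of the GID ubiquitin ligase, which degrades enzymes of gluconeogenesis when glucose returns, were higher (median 2.06), with GID10 at 77.1 and 107.9 CPM at 48 h and 0.72 and 0.74 CPM in log phase.

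Peroxisomes and fatty acid oxidation had 32 of 46 genes higher and 4 lower (median 1.23; 2 lower without the library of strain 1 at 48 h). POX1, the first enzyme of beta-oxidation, had 104.9 and 137.8 CPM at 48 h and 1.75 and 2.10 CPM in log phase, and PEX18, an import receptor partner, rose by 6.60. PEX31 fell by 0.88 ± 0.15, and ANT1, the peroxisomal carrier of adenine nucleotides, by 0.88 ± 0.29 with an adjusted p of 0.0189, which was 0.0813 without the log-phase library of strain 1 and 0.15 without the library of strain 1 at 48 h.

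Among stationary-phase genes and hydrophilins 30 of 33 were higher and 1 was lower (median 4.75). HSP12, SPG4 and PHM7, described above, are among them, and NOP6, which also acts in ribosome assembly, was the one that fell, by 1.24 ± 0.22. In the list for heat shock and chaperones, of 33 genes 22 were higher and 7 lower, and the 2 with the largest drop among the 7 were SSB1, with 285.2 and 250.8 CPM at 48 h and 2562 and 2352 CPM in log phase, and SSZ1 (-2.54 ± 0.20), both chaperones that sit on ribosomes; SSB1 has a near-identical copy, SSB2. HSP26 had 1196 and 1367 CPM at 48 h and 6.61 and 6.36 CPM in log phase, and HSP30 rose by 4.06. HSP32 and HSP33 had 0 counts in both log-phase libraries, and against a floor of 3 counts over the group they were at least 36.3-fold and 50.2-fold higher at 48 h, but they are near-identical to each other. In the cytosolic Hsp70 family SSA3 and SSA4 were higher, SSA3 by 2.45, and SSA4 had an adjusted p of 0.0526 without the log-phase library of strain 2.

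Reserve carbohydrates were among the clearest groups. Of the trehalose genes 8 of 9 were higher and none lower (median 2.60), and of the glycogen genes 15 of 17 were higher and 1 lower (median 2.53). Genes of synthesis and of breakdown rose together: TSL1 of the trehalose synthase complex rose by 4.17 ± 0.35 and the trehalases ATH1 and NTH1 by 3.17 and 2.90, while the glycogen synthase GSY2 rose by 2.53, the debranching enzyme GDB1 by 5.69 and the glucoamylase SGA1 by 6.46. GAC1, which directs a phosphatase to glycogen synthase, had 411.1 and 476.5 CPM at 48 h and 3.82 and 6.09 CPM in log phase. PHO85, a kinase that restrains glycogen storage, fell by 0.47 ± 0.12, and its adjusted p was 0.0581 without the library of strain 2 at 48 h.

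The stress response element (CCCCT) was in 30.5% of the windows of genes called higher and in 14.2% of those of genes called lower, against 21.7% of all windows. The share was 39.3% in genes more than 4-fold higher and 43.2% in those past 4 on the log2 scale. It was 53.3% in the respiratory chain list, in which the CCAAT box of the Hap2/3/4/5 complex was in 76.7% of the windows, against 43.7% of all windows, and 47.1% in the glycogen list. The 1220 genes with the element had a median log2 fold change of 0.41 and the 4411 without it one of -0.11. The Mig1 core (CCCCAC) was in 6.05% of windows of genes called higher and 3.27% of those of genes called lower, against 4.32% of all. A motif of this length also occurs by its letters alone, and its presence says nothing about binding.

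The stretch from 250 to 101 bases before HSP12 is shown because HSP12 had the largest change with all libraries, and that of CYB2, the lactate dehydrogenase of the respiratory list, because it had the largest change among genes of that list with both elements in these bases. Capitals mark CCCCT in HSP12, and CCCCT and CCAAT in CYB2. They lie at chr6:107006-107155 (plus strand) and chr13:167409-167558 (minus strand) of the R64 assembly, read from RefSeq along the gene's strand. CYB2 had 72.1 and 96.8 CPM at 48 h and 7.003 and 4.941 CPM in log phase (3.83 ± 0.34).
HSP12: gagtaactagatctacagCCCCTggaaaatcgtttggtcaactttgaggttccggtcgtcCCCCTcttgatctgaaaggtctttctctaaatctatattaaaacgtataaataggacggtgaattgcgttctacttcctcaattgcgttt
CYB2: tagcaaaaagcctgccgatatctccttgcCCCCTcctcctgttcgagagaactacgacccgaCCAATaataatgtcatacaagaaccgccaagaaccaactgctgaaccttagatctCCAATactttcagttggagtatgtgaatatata

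Regulators of stress and of glucose repression had 30 of 41 genes higher and 4 lower (median 1.02). SIP4 and CAT8, activators of gluconeogenesis, rose by 6.67 ± 0.24 and 6.04 ± 0.26, with CAT8 at 688.4 and 743.0 CPM at 48 h and 7.96 and 13.7 CPM in log phase. XBP1, a repressor active in quiescent cells, had 142.1 and 147.6 CPM at 48 h and 1.03 and 2.37 CPM in log phase, and USV1 rose by 5.24. SNF4, the activating subunit of the Snf1 kinase, fell by 1.67 ± 0.15, and MIG2, a repressor of glucose-repressed genes, by 1.14 ± 0.26. Of the Ras, protein kinase A and TOR pathway genes 20 of 41 were higher and 5 lower (median 0.486). The median was 0.664 without the log-phase library of strain 2 and 0.29 without that of strain 1. The phosphodiesterase gene PDE1 rose by 2.51, whereas RAS1 had 32.4 and 34.7 CPM at 48 h and 181.5 and 158.9 CPM in log phase.

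Autophagy genes were higher in 30 of 38 cases and lower in 1 (median 1.47). ATG39, a receptor for the autophagy of the nuclear envelope, had 214.0 and 210.5 CPM at 48 h and 7.56 and 8.80 CPM in log phase, and ATG8, the lipid-linked protein of the growing membrane, rose by 3.27 ± 0.22. ATG27 fell by 1.08. Of the vacuolar hydrolases 9 of 18 were higher and 4 lower, with the protease gene PRB1 at 2144 and 2238 CPM at 48 h and 112.3 and 205.0 CPM in log phase. PAI3, the inhibitor of protease A, rose by 5.87. The proteasome showed 6 of 37 genes higher and 14 lower, near or below the share over all genes, and the activator of its genes RPN4 rose by 2.26 ± 0.15. These counts moved with the library left out: 3 higher and 18 lower without the log-phase library of strain 2, and 2 higher and 9 lower without that of strain 1.

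Oxidative stress genes were higher in 20 of 37 cases and lower in 9, and in 13 and 9 cases without the log-phase library of strain 2. CTT1, the cytosolic catalase, had 622.3 and 982.7 CPM at 48 h and 10.6 and 7.51 CPM in log phase, and CTA1, the peroxisomal catalase, rose by 3.41. GPX2 and the thioredoxin reductase TRR1 fell by 3.05 and 2.19.

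Nutrient pathways did not move in one direction, and their counts are read against the 33.9% of all genes called higher and the 32.9% called lower. Amino acid synthesis had 39 of 64 genes lower and 10 higher (median -0.84), with HIS1 at 179.0 and 135.7 CPM at 48 h and 1902 and 1283 CPM in log phase. LEU1 of leucine synthesis and ARG3 of arginine synthesis rose by 3.55 and 3.57, and the higher count was 6 without the library of strain 1 at 48 h. Of the permeases 13 of 27 were lower and 8 higher: GAP1, the general amino acid permease, had 266.6 and 299.2 CPM at 48 h and 3305 and 3427 CPM in log phase, while BAP2, for branched-chain amino acids, rose by 5.17 ± 0.26. Genes under nitrogen catabolite repression had 16 of 33 lower and 12 higher, with GLN1, glutamine synthetase, at -2.61 (7 higher without the log-phase library of strain 1). In sulfur and methionine metabolism 12 of 28 were lower and 10 higher: the methionine synthase gene MET6 fell by 2.43 and the regulators MET28 and MET32 rose by 3.24 and 2.85.

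Phosphate genes had 15 of 27 lower and 7 higher. PHO3, an acid phosphatase, had 3.71 and 4.55 CPM at 48 h and 88.8 and 58.6 CPM in log phase, and PHO89, a sodium and phosphate symporter, rose by 2.61. PHO11 and PHO12 changed by -2.63 and -4.19 but are near-identical. Vitamin genes had 21 of 33 higher and 9 lower: BIO5 of biotin precursor uptake had 164.0 and 149.4 CPM at 48 h and 2.55 and 2.17 CPM in log phase, and VHT1, the biotin transporter, rose by 4.18.

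The iron regulon is the set of genes that Aft1 turns on when iron is short. It had 10 of 33 genes higher and 11 lower, near the 33.9% and 32.9% of all genes tested. Its median was near 0 and changed sign between scalings of the libraries (-0.02 to 0.05), and the higher count was 6 without the library of strain 2 at 48 h. FET3, the copper oxidase of iron uptake, had 77.9 and 70.6 CPM at 48 h and 415.1 and 1498 CPM in log phase, so that the difference between the log-phase strains was itself large. FIT2 had 2.59 and 3.06 CPM at 48 h and 6.05 and 31.8 CPM in log phase, and FIT3 10.6 and 12.7 CPM at 48 h and 18.9 and 88.9 CPM in log phase. FIT3 was singled out after its values were seen. The log-phase library of strain 2, with high 15S rRNA, was the higher in all 3 genes. Without it the change of FIT3 was -0.77 with an adjusted p of 0.162, against -2.21 and 0.00852 with all libraries. ISU1, a scaffold for iron and sulfur clusters, rose by 3.06 ± 0.22 and FIT1 by 4.34 ± 0.47.

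Genes named for meiosis and sporulation were higher in 34 of 53 cases and lower in 1 (median 1.52), in strains with the markers of haploid a cells, which do not sporulate. SPS100, a spore wall protein, had 96.5 and 106.7 CPM at 48 h and 1.35 and 2.03 CPM in log phase (5.89 ± 0.26), and the meiotic regulator RIM4 had 218.5 and 250.9 CPM at 48 h and 5.969 and 8.596 CPM in log phase. IME1, the initiator of meiosis, rose by 1.70 with 235 and 297 counts at 48 h and 47 and 143 counts in log phase. NDT80, the switch to meiotic divisions, was not called (-0.23, adjusted p = 0.238), and SPS4 fell by 3.95 ± 0.26. Relative to unscaled totals, the 10 sporulation markers summed to 201 and 209 CPM at 48 h and 90.4 and 99.6 CPM in log phase. SPS100 alone made up 94.5 and 107.4 CPM of these sums at 48 h and 1.24 and 2.01 CPM in log phase. Of the other markers, IME1, DIT1, DIT2, ZIP1 and HOP1 were called higher, SPS4 was lower, and NDT80, SMK1 and SPO11 were not called. The URS1 core (GCCGCC), through which Ume6 represses such genes, was in 37.7% of the windows of the list, against 4.95% of all windows.

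Splicing is the process in which Ysf3 itself acts. YSF3 had 2.47 and 2.22 CPM at 48 h and 4.06 and 2.57 CPM in log phase, from 22 and 37 counts at 48 h and 51 and 38 counts in log phase. The change of -0.50 ± 0.31 did not pass the test (adjusted p = 0.182). In the deposited FPKM values YSF3 was also lower at 48 h, 808 and 744 against 1239 and 847 in log phase. These values are far above what its counts imply per length, and no level was taken from them. The table has a count per gene and none per intron, so the absence of the intron could not be checked. MMS2, which has its intron in these strains, had 19.5 and 17.1 CPM at 48 h and 15.8 and 15.2 CPM in log phase (0.23 ± 0.17, adjusted p = 0.25).

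Of the 9 genes of SF3b and SF3a 2 were higher and 2 were lower. CUS1 of SF3b had 99.1 and 103.8 CPM at 48 h and 30.7 and 36.4 CPM in log phase (1.59 ± 0.24, adjusted p = 0.00016), and HSH49 rose by 0.78 ± 0.22 (adjusted p = 0.00881), which was 0.0815 without the log-phase library of strain 2. HSH155, the large scaffold of SF3b, had 54.0 and 52.4 CPM at 48 h and 81.2 and 82.1 CPM in log phase (-0.62 ± 0.15, adjusted p = 0.00364). RDS3 fell by 0.91 ± 0.25 (adjusted p = 0.00829), which was 0.0562 without the log-phase library of strain 1 and 0.0734 without the library of strain 2 at 48 h. RSE1, YSF3, PRP9, PRP11 and PRP21 were not called. These counts lie below the shares over all genes in both directions, and without 1 library they were 1 higher and 3 lower (log-phase library of strain 2) or 2 higher and 1 lower (library of strain 2 at 48 h). The wider list of splicing factors had 26 of 80 genes higher and 15 lower (median 0.08), against 33.9% and 32.9% of all genes. ECM2 rose by 2.28 ± 0.13 and SUB2, which also exports messenger RNA, fell by 1.84 ± 0.19.

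Genes with an intron, leaving out those of ribosomal proteins, had 51 of 168 higher and 65 lower. Over all genes tested 33.9% were higher and 32.9% lower, so these counts lie near the shares of all genes. The median of the list was -0.19, and -0.137 to -0.323 when 1 ysf3 library was left out. TEF4 and IMD4 changed by -3.44 and -2.83, and MND1, a gene of meiotic recombination, and PAL2 rose by 4.73 and 4.64. Counts per gene do not tell spliced from unspliced RNA.

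The 10 most abundant RNAs by level per length at 48 h, snR190, SCR1 and LSR1 first among them, encode no protein; in log phase 8 of 10 encode none, and the others were FBA1 and ADH1. LSR1, the U2 RNA to which SF3b binds, had 6.67% and 6.86% of all counts at 48 h and 1.60% and 1.35% in log phase, and rose by 2.13 ± 0.28 (adjusted p = 5.75e-05). snR19, the U1 RNA, rose by 2.46 ± 0.21, with 15225 and 16331 CPM at 48 h and 2882 and 2845 CPM in log phase. snR7-L, the long form of U5, had 31.3 and 36.4 CPM at 48 h and 43.5 and 30.2 CPM in log phase and was not called. SCR1, the RNA of the signal recognition particle, rose by 1.11 ± 0.29, but its adjusted p was 0.0557 by edgeR with the 4 ysf3 libraries alone, and the telomerase RNA TLC1 was not called (0.19 ± 0.20). snR7-L, TLC1, the ribosomal RNAs and FIT3 of the iron regulon were singled out after their values were seen. Of the small nucleolar RNAs 11 of 42 tested were higher and none lower (median 0.79), but 2 were higher without the log-phase library of strain 2, 5 without the library of strain 1 at 48 h and 7 without that of strain 2 at 48 h. Of the 76 RNAs of this list 34 were not tested.

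Mitochondrial ribosomal RNAs depended on 1 library. 15S rRNA had 1621 and 842.7 CPM at 48 h and 8.20 and 1637 CPM in log phase, and 21S rRNA had 1333 and 1090 CPM at 48 h and 49.7 and 1347 CPM in log phase. Neither was called (adjusted p = 0.785 and 0.587). The messenger RNAs of the same genome did not follow this library, with COX1 at 277.0 and 250.9 CPM in log phase.

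**Figure D3:**
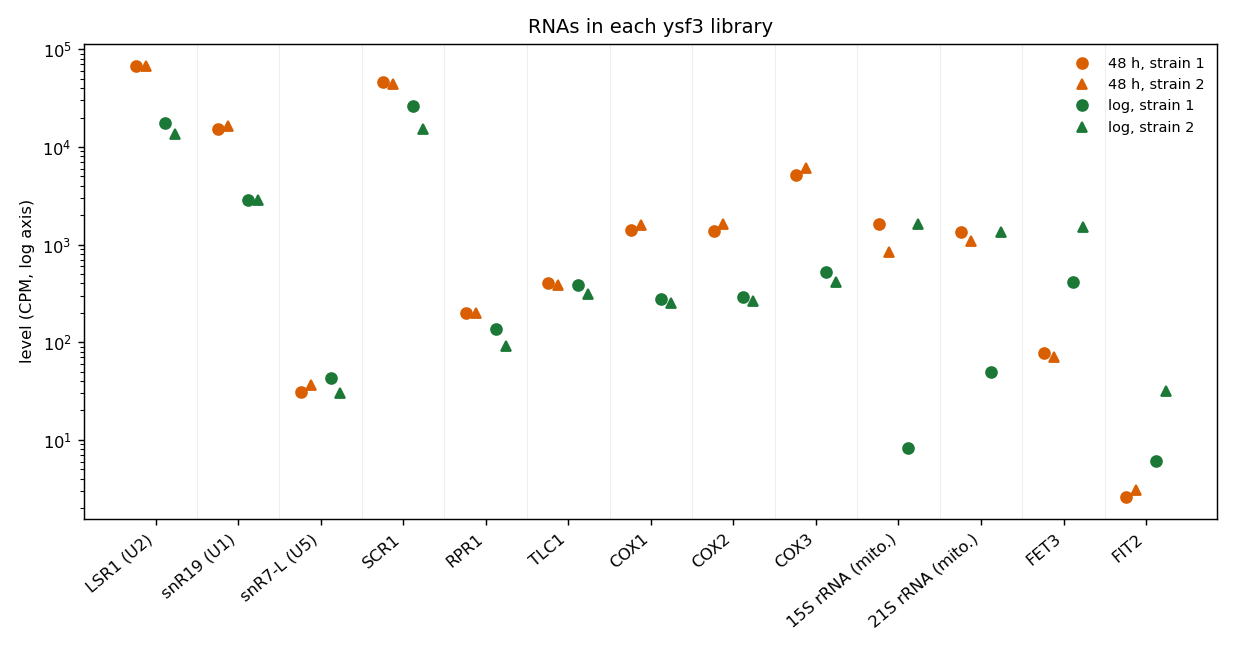
Level of 13 RNAs in each ysf3 library (CPM, log axis), with orange symbols at 48 h left of green symbols in log phase, circles for strain 1 and triangles for strain 2. In log phase 15S rRNA differed between strains, 8.20 and 1637 CPM, while LSR1 and COX1 differed little, and FET3 and FIT2 were higher in strain 2.

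In the last comparison the change of the ysf3 deletion from log phase to 48 h was set against that of the other genotypes. In edgeR's quasi-likelihood test no gene was called in the difference between the ysf3 deletion and the wild type (0.0% of 6068 genes) or between the ysf3 and the mms2 deletion (0.0%). By edgeR's test without adjustment 284 and 194 genes had a p under 0.05, which is 4.68% and 3.2% of genes. DESeq2's Wald test called 0 and 2 genes, and the 2 were PHM7 and POT1. The median approximate error of the difference was 0.275 on the log2 scale against either genotype.

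Side by side, the 3 genotypes gave similar lists. Of the 4056 genes called in the ysf3 deletion 3547 were called in the mms2 deletion with the same sign, 87.5% of the ysf3 list and 91.2% of the 3890 mms2 calls. For wild-type cells 3612 were called with the same sign, 89.1% of the ysf3 list and 88.7% of the 4073 genes of the wild type. No gene was called in opposite directions. Across the 6068 genes, which are not independent replicates, Pearson's r of the log2 fold changes was 0.957 with the mms2 deletion and 0.951 with the wild type, and 96.8% and 95.4% of genes differed by less than 1 on the log2 scale.

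**Figure D4:**
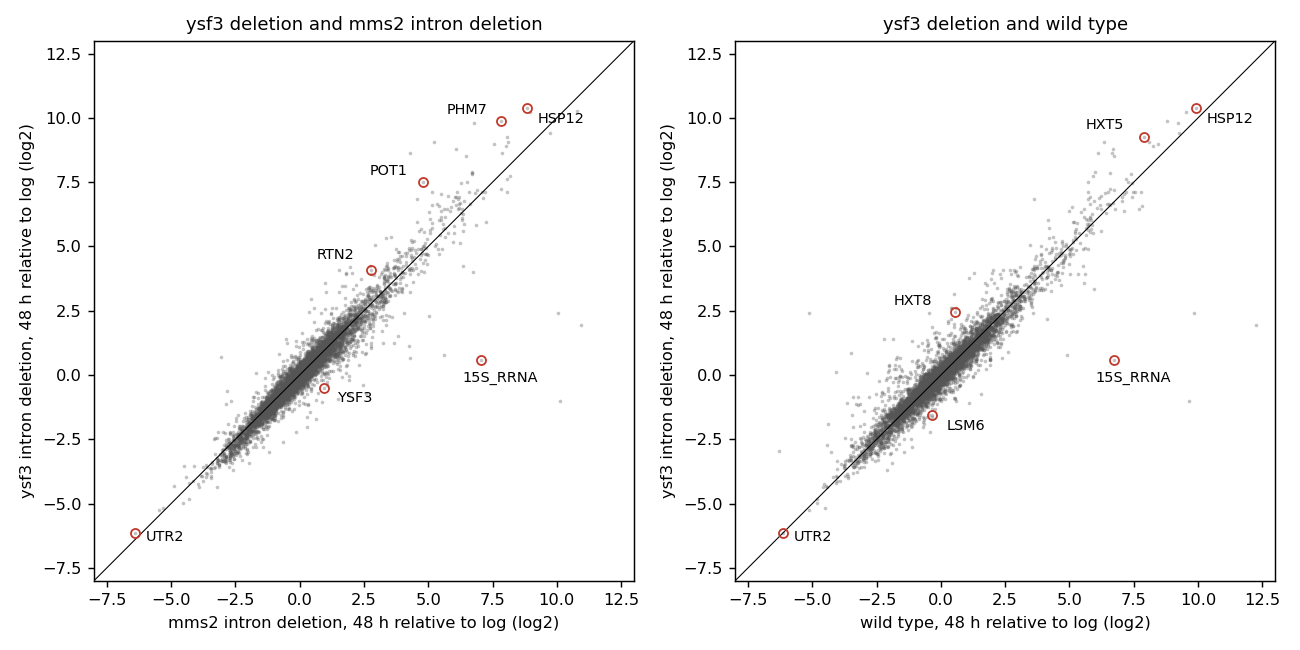
Phase change of each gene (log2, 48 h over log phase) for the ysf3 deletion (vertical) against the mms2 deletion (left panel) and the wild type (right panel), 1 point per gene of 6068, with the line of equal change. The points follow the line (Pearson's r across genes 0.957 and 0.951), and 15S rRNA lies far below it in both panels, with a change of 0.58 in the ysf3 deletion, 7.04 in mms2 deletion strains and 6.73 in wild-type strains.

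The genes with the smallest unadjusted p by edgeR's test in these differences, none of them called, are given as values. Against the wild type they were YKL053W, HXT5, LSM6, BNA3 and HXT8, with differences of 2.20, 1.39, -1.22, -0.85 and 1.88. Each had an adjusted p of 0.905 by that test, a value shared by further genes, among them ARG3 and CRC1. HXT5 changed by 9.27 in the ysf3 deletion, by 8.05 in the mms2 deletion and by 7.88 in the wild type, and HXT8 by 2.45, 2.53 and 0.57. Over the whole list of hexose transporters the median was 2.45 in the ysf3 deletion, 1.71 in mms2 deletion strains and 1.01 in wild-type strains, a difference between lists that was not tested. Against the mms2 deletion they were PHM7, RTN2, ATG10, POT1 and PEX21, with differences of 2.06, 1.32, -1.93, 2.70 and -0.79 and an adjusted p of 0.892 for PHM7 and 0.988 for the others. YSF3 changed by -0.50 in the ysf3 deletion, 0.93 in mms2 deletion strains and 0.37 in wild-type strains, and the differences of -1.43 ± 0.46 and -0.87 ± 0.45 did not pass the test (adjusted p = 0.988 and 0.905).

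**Figure D5:**
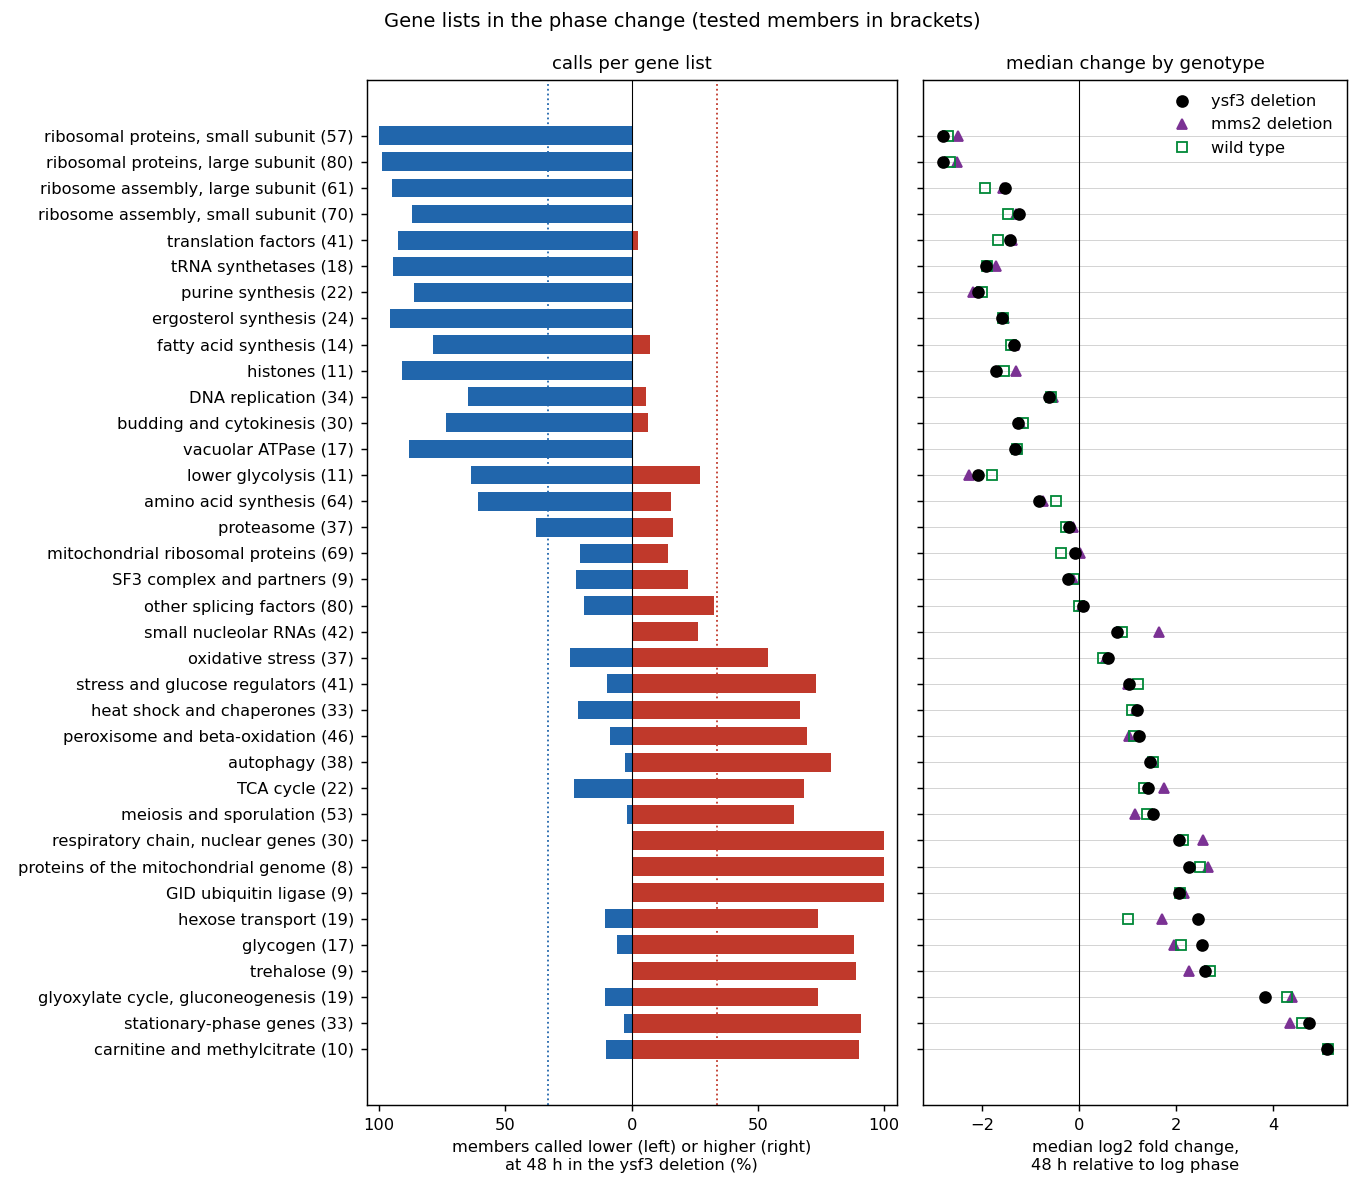
Left, share of tested members of 36 gene lists called lower (blue) or higher (red) at 48 h in the ysf3 deletion, with dotted lines at the share over all genes (32.9% lower, 33.9% higher). Right, the median log2 fold change of each list in the ysf3 deletion (circles), the mms2 deletion (triangles) and the wild type (squares), from -2.81 for ribosomal proteins of the large subunit to 5.11 for carnitine and methylcitrate genes in the ysf3 deletion.

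List medians of the phase change lay close together in most lists. For ribosomal proteins of the large subunit the median was -2.81 in the ysf3 deletion, -2.52 in mms2 deletion strains and -2.66 in wild-type strains, and for the respiratory chain it was 2.07, 2.55 and 2.15. For stationary-phase genes it was 4.75, 4.35 and 4.60. Small nucleolar RNAs had 0.79, 1.64 and 0.89, in a group of RNAs whose counts in the ysf3 deletion turned on the log-phase library of strain 2.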

How the data were processed

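The deposited table holds raw counts per gene for 12 libraries, which the authors made with Bowtie2 and HTSeq on sacCer3, per the submitters' processing notes; the strand setting of the counting is not given in the sources used here, so overlapping genes on opposite strands are uncertain. The authors also deposited FPKM values, used for YSF3 and MMS2 alone, and a table of log2 fold changes with adjusted p-values, for which the processing notes name DESeq2.

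Counts were fitted with edgeR 4.0.16 (quasi-likelihood test, TMM scaling, filterByExpr, R 4.3.3) over all 12 libraries in 6 groups of 2, which leaves 6 residual degrees of freedom, and p-values were adjusted by the Benjamini-Hochberg method over 6068 of 7126 genes. CPM values of single genes are TMM-scaled; the marker sums and the limits from 0 counts use the unscaled library totals. The change in the ysf3 deletion was tested alone and against that of the mms2 deletion and of the wild type. Intervals and floors of 3 counts cover counting error only. Gene IDs were matched to RefSeq for 6162 of 7126 genes (6048 by locus tag and 114 by symbol), and genes at least 95% identical over 50% of their length were marked as copies. The fit was also run on simulated counts in which far fewer genes changed than here, and no result above rests on that run.

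Genes were named by rule: the 20 highest and 20 lowest called genes with a mean of at least 10 CPM and no group overlap. Also named were up to 4 called members of each list in its main direction and 2 in the other, and isozyme family members. The 10 most abundant genes per length in each phase and the 5 smallest unadjusted p-values of each difference completed the rule. Members and lists were chosen with earlier results of these data known. Strain numbers pair the libraries, since a number marks the same strain in both phases, but the deviations of the strains from their group means had a correlation of 0.0374 between phases. With the strain as a replicate block 3830 genes were called, 1956 higher and 1874 lower. Some genes that the rule names are not reported here.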

Additional observations from a re-analysis of the deposited data

How the results depend on the processing

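No gene called in the ysf3 phase change was called in the opposite direction under any of the 13 alternatives. The direction of genes that lost their call was looked at in the named genes only, as were the sign changes given below. The count of 4056 was 3386 to 3934 when 1 ysf3 library was left out, 3324 at an adjusted p under 0.01, 2791 against a fold of 1.5, 4048 with DESeq2 size factors, 4018 with library totals, 4021 without the filter, 3870 with the 4 ysf3 libraries alone, 4017 with DESeq2's Wald test and 3830 in the paired fit with the replicate block. The replicate block ended the calls of UBC13 (adjusted p = 0.0558) and ORC6 (adjusted p = 0.0596) by edgeR's test and changed no other call among the named genes. The difference from the wild type had 0 to 3 called genes when 1 library was left out; the 3, without the log-phase library of wild-type strain 2, were YGL089C, SAG1 and STE6. The difference from the mms2 deletion had 0 called genes with any library left out and 2 by DESeq2's Wald test. Of the genes named above for the wild type, SAG1 is a marker of alpha cells and STE6 of a cells. In log phase SAG1 had 1518 and 32.86 CPM in wild-type strains 1 and 2, and STE6 had 19.98 and 770.6 CPM. Without strain 2, the wild-type log phase was strain 1 alone, which had the alpha pattern. Whether the ysf3 intron deletion had a part in those calls was not tested. Values that turned their sign when 1 library was left out were all uncalled: snR83 ranged from -0.046 to 0.79, snR7-L from -0.44 to 0.16, 15S rRNA from -0.41 to 7.15, 21S rRNA from -0.16 to 4.52, RDN37-2 from -3.10 to 10.26, TLC1 from -0.028 to 0.34, and the MMS2 difference from the mms2 deletion from -0.071 to 0.31. The cause was not tested. Of the named phase changes 5038 values kept direction and call, 87 lost and 17 gained the call and 6 turned round.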

Other observations

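Counts for further lists in the ysf3 deletion are read against the 33.9% of all genes called higher and the 32.9% called lower. Of the 23 DNA damage response genes tested 14 were called higher and 2 lower (1 lower without the log-phase library of strain 1 or without either library at 48 h), with RAD16 at 341.3 and 313.7 CPM at 48 h and 75.2 and 90.7 CPM in log phase, and RAD54 at 261.6 and 244.7 CPM at 48 h and 51.2 and 89.7 CPM in log phase. DDR2, a stress gene, had 230 counts at 48 h and 0 in log phase, at least 82.0-fold higher against a floor of 3 counts over the group. Of 14 lipid storage genes 8 were higher and 4 lower, with PLN1, a protein of lipid droplets, changed by 2.13 ± 0.18 and the steryl ester hydrolase gene YEH1 by -1.60 ± 0.16. Among phospholipid and sphingolipid genes 6 of 25 were higher and 12 lower, and INO1, inositol phosphate synthase, had 1312 and 961.0 CPM at 48 h and 174.1 and 95.8 CPM in log phase.

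The remaining lists were near or below those shares in most counts. Copper and zinc genes had 6 of 15 higher and 4 lower. ZRT1, the high-affinity zinc transporter, had 800.1 and 775.8 CPM at 48 h and 100.5 and 64.5 CPM in log phase. In the ubiquitin list 5 of 15 were higher and 5 lower, and 2 lower without the library of strain 2 at 48 h: UBI4, the polyubiquitin gene, had 1813 and 1614 CPM at 48 h and 209.5 and 157.2 CPM in log phase, while RPL40A and RPS31, which encode ubiquitin fused to ribosomal proteins, changed by -3.03 ± 0.31 and -2.74 ± 0.22. Mitochondrial import and fusion had 9 of 32 higher and 12 lower, with the porin gene POR2 at -2.17 ± 0.15 and the fusion gene FZO1 at 1.11 ± 0.11. Ty elements had 4 of 55 higher and 8 lower, with 3 higher and 14 lower of 56 without the log-phase library of strain 1 and 7 higher and 6 lower without that of strain 2, and their copies share sequence.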
